A study of Oryza sativa with 4 samples.

Results

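Cohesin, condensin, the spindle checkpoint, the kinetochore and the anaphase-promoting complex carry a cell's replicated chromosomes through mitosis. The genes described here are the 49 gene models, of 55986 in the rice annotation used, whose KEGG orthology (KO) identifier is 1 of 34 identifiers for these complexes and their regulators. A total of 26 of the 34 identifiers are carried by at least 1 gene model, and 12 of those by more than 1. The files pair gene models with identifiers only, so the protein names below (SMC1, MAD2 and so on) are the general names of the orthology groups. RNA-seq was performed on whole 7-day-old seedlings of Oryza sativa japonica, and neither genotype received a treatment. The mre11 samples came from 1 T-DNA insertion line, whose insertion lies in an intron of OsMre11, the nuclease subunit of a DNA double-strand break repair complex. The WT samples came from cultivar Dongjin. Each genotype has 2 samples, with several plants pooled in each, and nothing in the labels says that the samples were grown apart, so the p-values measure the spread between these samples only.

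Cohesin is a ring built from the ATPases SMC1 and SMC3 and closed by a kleisin, RAD21, and it holds sister chromatids together after DNA replication. Condensin is a related ring that compacts chromosomes for division. The spindle checkpoint delays anaphase until kinetochores are attached to the spindle. Its protein MAD2 holds back CDC20, the activator of the anaphase-promoting complex. Once released, this ubiquitin ligase triggers the destruction of an inhibitor of separase, the protease that cuts the kleisin and opens cohesin. In seedlings, dividing cells lie mainly in the root and shoot meristems and at the leaf base. The RNA here is from whole seedlings, in which more cells of a type and more RNA per cell cannot be told apart.

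The libraries held between 12753324 and 19004825 counts on genes, with the mre11 libraries the deeper. Mre11 (LOC_Os04g54340) had 132 and 118 counts in the mre11 libraries, against 306 and 471 counts in the WT libraries, a log2 fold change of -2.09 ± 0.19 (SE, adjusted p = 0.00141 by edgeR's quasi-likelihood test with Benjamini-Hochberg adjustment, as throughout). In all, 24470 gene models had enough counts to be tested, and their median log2 fold change was 0.03. Light-harvesting and Rubisco small subunit genes, which mark green tissue, had a summed level of 14900 and 23000 RPKM (reads scaled by gene length and library size) in the mre11 libraries, against 7490 and 13300 RPKM in the WT libraries. The list was not uniform. Its 17 tested genes had log2 fold changes from -0.28 to 1.90. By the threshold given below, 5 were higher and none lower, where 12% and 9.31% of all tested genes were. The Rubisco genes with the highest levels were not among the 5. Alpha-amylase genes, markers of the seed remnant, summed to 36.1 and 40.7 RPKM in mre11 and 40.7 and 38.3 RPKM in WT. LOC_Os04g33040 held most of this sum, and other alpha-amylase genes set the mre11 libraries apart, such as LOC_Os08g36910 with 12 and 376 counts in mre11 and 73 and 89 counts in WT. The part of either tissue in the results below was not tested.

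Of the 49 gene models, 41 were tested and 8 had too few counts. The threshold for calling a gene higher or lower was a 2-fold difference with an adjusted p below 0.05. By this rule 17 of the 41 were higher in mre11 (41.5%) and 3 were lower (7.32%). Over all tested genes the shares were 12% and 9.31%, so the share of lower members was near that of all genes. At any fold, 19 members were higher and 5 lower, against 18.8% and 18.3% of all tested genes. Both mre11 libraries lay above both WT libraries in 28 members (68.3%) and below them in 9 (22.0%), where 37.5% and 35.7% of all tested genes did so. Libraries that do not overlap, as stated for single genes below, are thus common among all genes. The members' median log2 fold change was 0.63, and single values spanned -1.54 to 2.74. The count of higher members was 9 without WT replicate 1 and 8 without WT replicate 2, and that of lower members was 1 without WT replicate 2 and 1 without mre11 replicate 1. Over all genes, too, fewer were called higher and fewer lower in each fit that leaves out a library. With scaling by library size alone, 19 members were higher and 2 lower. The split over all genes then became 3795 higher and 1711 lower, in place of 2930 and 2277, and the median over all genes shifted to 0.19.

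**Figure D1:**
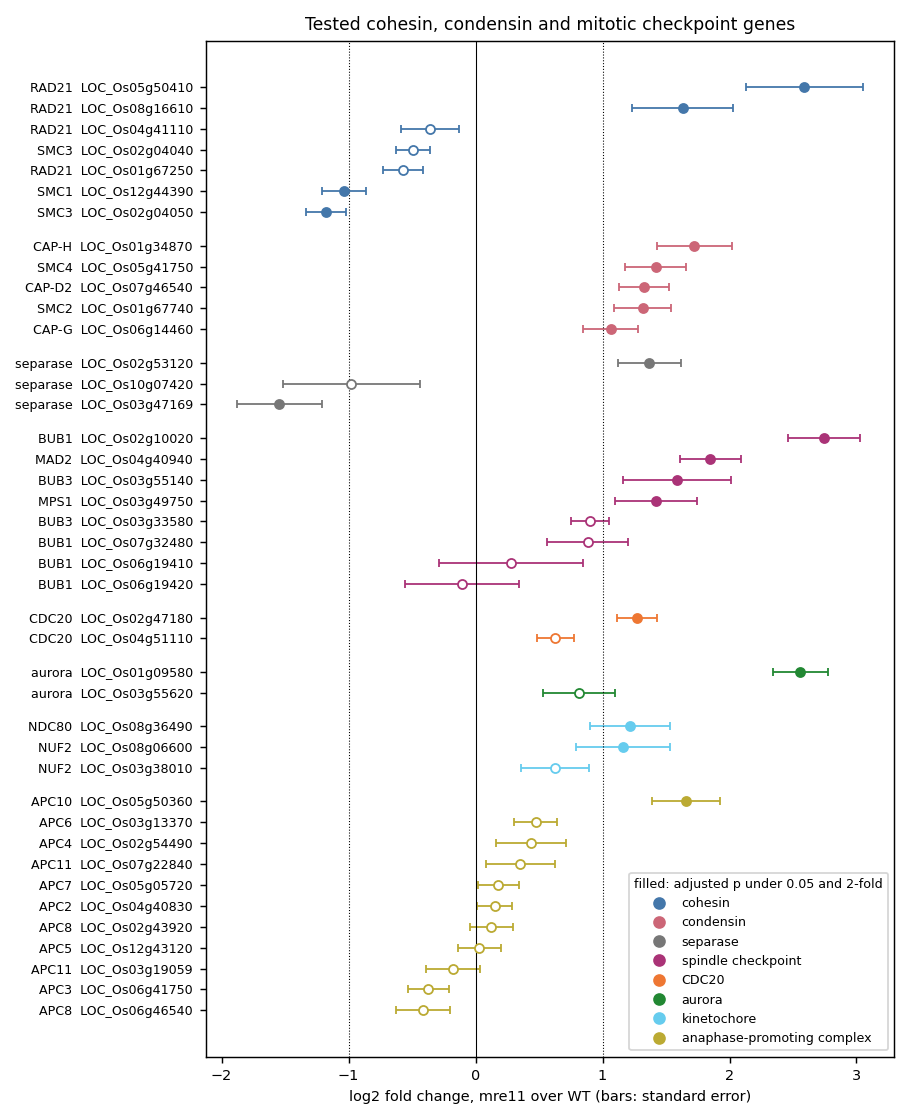
Log2 fold changes of mre11 over WT for the 41 tested gene models, ordered by group and by value. Points are edgeR estimates, bars are 1 standard error, dotted lines mark a 2-fold difference, and filled points passed the test. All 5 condensin points lie between 1.06 and 1.72, while 10 of the 11 points of the anaphase-promoting complex lie between -0.41 and 0.47.

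The cohesin genes moved in both directions. SMC1 and 1 SMC3 gene were lower in mre11, 2 of the 4 RAD21 genes were higher, and the 2 most abundant cohesin genes were lower at less than 2-fold in the reported fit, but not with library size alone or in most fits that leave out a library. SMC1 is represented by a single gene model, LOC_Os12g44390 on chromosome 12. It had 233 and 223 counts in the mre11 libraries and 288 and 390 counts in the WT libraries, that is, 5.64 and 5.98 RPKM against 10.4 and 10.9 RPKM. Both mre11 libraries were below both WT libraries. The log2 fold change was -1.04 ± 0.18 (SE, adjusted p = 0.00678), just past the 2-fold line. Leaving out WT replicate 2 gave -1.02 (adjusted p = 0.0511), and leaving out mre11 replicate 1 gave -0.94 (adjusted p = 0.0144), so the call was lost in either case. It was also lost with upper-quartile scaling (-0.95), library size alone (-0.87) and limma on the RPKM values (-0.86 and -0.78 at the smaller and larger pseudocount).

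SMC3, the partner of SMC1 in the ring, is assigned to 5 gene models whose locus numbers run from LOC_Os02g04040 to LOC_Os02g04090 on chromosome 2. Nearly all of their reads fell on the first 2. LOC_Os02g04040 had 2074 and 1588 counts in mre11 and 1640 and 2047 counts in WT, which is 60.0 and 50.8 RPKM against 70.7 and 68.4 RPKM. It had the highest level of any member in all 4 libraries, and its log2 fold change of -0.49 ± 0.14 (SE, adjusted p = 0.0310) did not reach 2-fold. The adjusted p was 0.0504 with upper-quartile scaling, 0.125 with library size alone and 0.115 and 0.119 with limma. It was 0.146 without WT replicate 1, 0.109 without WT replicate 2 and 0.0897 without mre11 replicate 2. LOC_Os02g04050 had 397 and 338 counts in mre11 and 478 and 733 counts in WT, or 10.02 and 9.44 RPKM against 17.98 and 21.4 RPKM. The groups did not overlap, and it was lower by a log2 fold change of -1.18 ± 0.16 (SE, adjusted p = 0.00319). Its share of the SMC3 RPKM was 14.3% and 15.7% in mre11 and 20.2% and 23.8% in WT. The call on LOC_Os02g04050 was lost only with limma on log2(RPKM + 1), among the alternatives run, where the value was -0.94. The other SMC3 models were barely covered. LOC_Os02g04060 had no count in any library and LOC_Os02g04090 had no count in mre11 and 1 in each WT library. LOC_Os02g04080 had 1 and 0 counts in mre11 and 4 and 1 in WT.

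RAD21, the kleisin, is assigned to 4 gene models, which went opposite ways. LOC_Os01g67250 was the most abundant, at 22.3 and 17.5 RPKM in mre11 and 27.8 and 24.8 RPKM in WT. Its log2 fold change was -0.57 (adjusted p = 0.0318), lower but under 2-fold. The adjusted p was 0.104 with library size alone, 0.118 and 0.120 with limma, 0.163 without WT replicate 1, 0.0855 without WT replicate 2 and 0.0925 without mre11 replicate 2. LOC_Os05g50410 had 136 and 67 counts in the mre11 libraries, against 8 and 16 counts in the WT libraries. Its RPKM was 2.66 and 1.45 in mre11 and 0.23 and 0.36 in WT, and its log2 fold change was 2.59 ± 0.46 (SE, adjusted p = 0.00784). LOC_Os08g16610 had 78 and 94 counts in mre11 and 14 and 27 counts in WT, a log2 fold change of 1.63 ± 0.40 (SE, adjusted p = 0.0212). For both of these genes the mre11 libraries lay wholly above the WT libraries, from low counts in WT. Leaving out WT replicate 1 lost both calls (adjusted p = 0.0562 for LOC_Os05g50410 and 0.102 for LOC_Os08g16610). The LOC_Os08g16610 call was also lost without WT replicate 2 (adjusted p = 0.0654), without mre11 replicate 2 (adjusted p = 0.103), and with limma on log2(RPKM + 1), where its value was 0.86. LOC_Os04g41110 had 2.82 and 3.29 RPKM in mre11 and 3.40 and 3.61 RPKM in WT (log2 fold change -0.36, adjusted p = 0.248).

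The 2 higher RAD21 genes held small shares of the summed RAD21 RPKM. LOC_Os05g50410 held 9.11% and 6.0% of the summed RAD21 RPKM in mre11 and 0.723% and 1.23% in WT. LOC_Os08g16610 held 4.93% and 7.95% in mre11 and 1.20% and 1.95% in WT. LOC_Os01g67250 still held 76.3% and 72.4% in mre11, against 87.4% and 84.5% in WT. The RPKM of all 10 cohesin gene models together summed to 105 and 90.4 in mre11 and 131 and 130 in WT. The median log2 fold change of the 7 tested cohesin genes was -0.49.

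**Figure D2:**
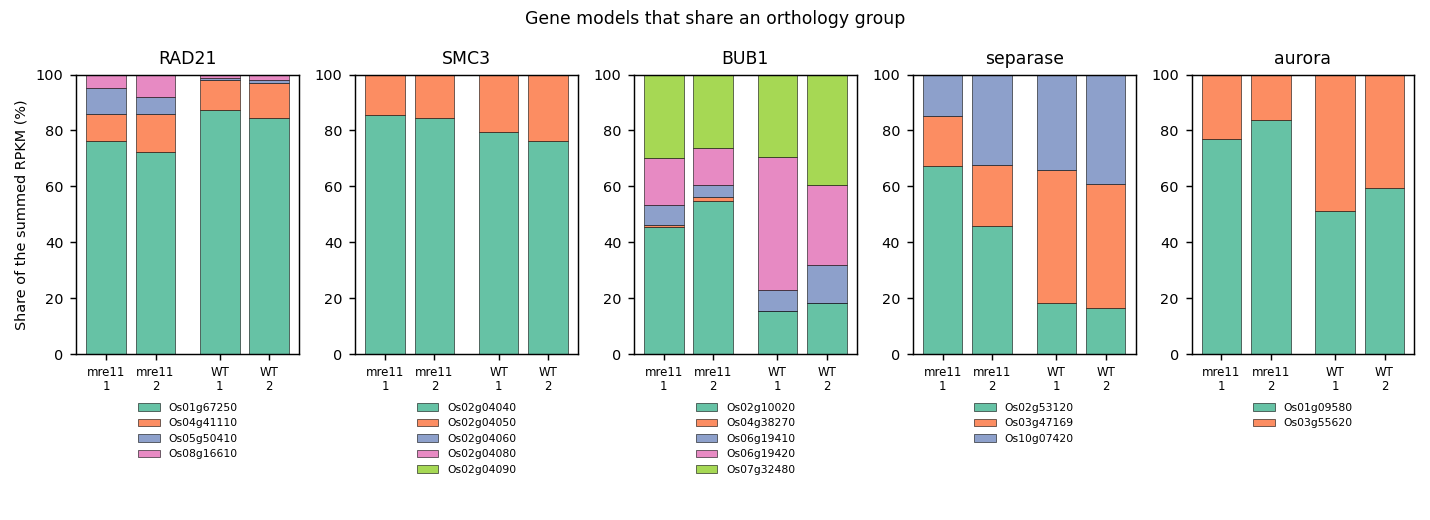
Share of the summed RPKM (%) held by each gene model, for 5 orthology groups with several gene models, in each mre11 and WT library. LOC_Os02g10020 held 45.5% and 54.6% of the BUB1 RPKM in mre11 and 15.3% and 18.4% in WT, and LOC_Os02g53120 held 67.3% and 45.9% of the separase RPKM in mre11 and 18.3% and 16.4% in WT.

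Condensin moved in 1 direction. Its 5 tested genes are 1 gene model for each of the 5 subunits. All 5 were higher in mre11, where 12% of all tested genes were. Their log2 fold changes were 1.06 to 1.72, with adjusted p by edgeR between 0.00443 and 0.0114. SMC2 (LOC_Os01g67740), an ATPase arm of the ring, had 727 and 437 counts in mre11 and 154 and 176 counts in WT. Its level was 9.35 and 6.22 RPKM in mre11, against 2.95 and 2.61 RPKM in WT, with a log2 fold change of 1.32 ± 0.23 (SE, adjusted p = 0.00698). SMC4 (LOC_Os05g41750), the other arm, had 457 and 308 counts in mre11 and 101 and 100 counts in WT, and a log2 fold change of 1.42 ± 0.24 (SE, adjusted p = 0.00662). For each arm, the lower mre11 library was above both WT libraries.

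CAP-H (LOC_Os01g34870), the kleisin of condensin, had 360 and 206 counts in mre11 and 60 and 60 counts in WT. It showed the largest difference of the complex, a log2 fold change of 1.72 ± 0.30 (SE, adjusted p = 0.00706). CAP-D2 (LOC_Os07g46540), a HEAT-repeat subunit, had 887 and 563 counts in mre11 and 174 and 239 counts in WT, a log2 fold change of 1.33 ± 0.20 (SE, adjusted p = 0.00443). The other HEAT-repeat subunit, CAP-G (LOC_Os06g14460), stood at 10.9 and 8.93 RPKM in mre11 and 4.18 and 4.28 RPKM in WT. This was a log2 fold change of 1.06, the smallest of the complex. A further gene model with the CAP-D2 identifier, LOC_Os05g34390, had no count in any library, and its GO terms name pollen recognition and protein kinase activity.

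The subunits also had similar levels to each other. Between the lowest and the highest subunit, RPKM differed 1.43-fold and 1.6-fold within the mre11 libraries and 1.49-fold and 1.67-fold within the WT libraries. Condensin RPKM summed to 57.1 and 40.7 in mre11 and 17.8 and 16.0 in WT. All 5 subunits were higher in mre11 replicate 1 than in mre11 replicate 2, by a median of 0.42 on the log2 scale. Without WT replicate 2 the adjusted p of SMC2, SMC4, CAP-H and CAP-G lay between 0.0544 and 0.0679, and CAP-D2 alone kept its call. The log2 fold changes of the 4 genes in that fit were 1.06 to 1.52. CAP-G was also lost without WT replicate 1 (adjusted p = 0.0655) and without mre11 replicate 1 (log2 fold change 0.97).

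Separase, the protease that opens the cohesin ring, is assigned to 3 gene models that went opposite ways. LOC_Os02g53120 had 415 and 248 counts in mre11 and 81 and 101 counts in WT, and was higher by a log2 fold change of 1.37 ± 0.25 (SE, adjusted p = 0.00824). LOC_Os03g47169 had 32 and 34 counts in mre11 and 61 and 79 counts in WT, and was lower by a log2 fold change of -1.54 ± 0.33 (SE, adjusted p = 0.0147). Both mre11 libraries lay above both WT libraries for the former and below them for the latter, as in 37.5% and 35.7% of all tested genes. LOC_Os10g07420, with 11 and 21 counts in mre11 and 18 and 29 in WT, had a log2 fold change of -0.98 (adjusted p = 0.197). LOC_Os02g53120 was the most abundant separase gene in both mre11 libraries, at 5.86 and 3.88 RPKM, and the least abundant in both WT libraries, at 1.70 and 1.65 RPKM. The 3 genes together summed to 8.71 and 8.46 RPKM in mre11 and 9.30 and 10 RPKM in WT. Both calls were lost without WT replicate 1 (adjusted p = 0.0554 and 0.0659) and without WT replicate 2 (adjusted p = 0.0643 and 0.0674), and that on LOC_Os03g47169 also without mre11 replicate 1 (adjusted p = 0.0524). The model LOC_Os03g47169 is listed at 1309 bases and LOC_Os10g07420 at 447 bases, against 7941 bases for LOC_Os02g53120. By counts LOC_Os02g53120 was the highest of the 3 in every library, so its rank and share in WT rest on the division by length.

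The spindle checkpoint genes were mostly higher in mre11, and none of the 8 tested was called lower by edgeR, by DESeq2 or at an unadjusted p below 0.05. Called higher were 4 of the 8, and 5 at any fold, where 12% and 18.8% of all tested genes were. The median log2 fold change of the 8 was 1.16. BUB1 is named for a kinase that recruits other checkpoint proteins to kinetochores. Of the models with its identifier, LOC_Os02g10020 had the largest log2 fold change of all tested members. The GO terms of LOC_Os02g10020 name the spindle checkpoint and the kinetochore but no kinase activity. This gene had 336 and 346 counts in mre11 and 25 and 50 counts in WT, or 11.6 and 13.3 RPKM against 1.29 and 2.00 RPKM. The log2 fold change was 2.74 ± 0.28 (SE, adjusted p = 0.00172), and 1.88% of all tested genes had a larger one. MAD2 (LOC_Os04g40940), the inhibitor of CDC20, had 366 and 397 counts in mre11 and 75 and 77 counts in WT. It was higher by a log2 fold change of 1.85 ± 0.24 (SE, adjusted p = 0.00311). For both genes, each mre11 library had more than 3 times the RPKM of either WT library.

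MPS1 (LOC_Os03g49750), a kinase at the head of the checkpoint, had 216 and 189 counts in mre11 and 34 and 78 counts in WT. Its log2 fold change was 1.42 ± 0.32 (SE, adjusted p = 0.0164), and without WT replicate 1 it was 1.08 (adjusted p = 0.0696). BUB3 (LOC_Os03g33580), a partner of BUB1 that docks it to the kinetochore, had 847 and 664 counts in mre11 and 261 and 318 counts in WT. At 20.2 and 17.5 RPKM in mre11 and 9.26 and 8.74 RPKM in WT it was the most abundant checkpoint gene. Its log2 fold change of 0.90 ± 0.15 (SE, adjusted p = 0.00663) was under 2-fold, and it passed 2-fold with library size alone (1.07). Without WT replicate 2 its adjusted p was 0.0605. The other tested BUB3 model, LOC_Os03g55140, had 2.89 and 1.57 RPKM in mre11 and 0.60 and 0.71 RPKM in WT. The fitted log2 fold change was 1.59 (adjusted p = 0.0290), and its GO terms name translation elongation in place of the checkpoint. The call on it was lost without either WT library (adjusted p = 0.125 without replicate 1 and 0.109 without replicate 2), without mre11 replicate 1 (adjusted p = 0.167) and with limma on log2(RPKM + 1), where its value was 0.93. Without WT replicate 1, the number of checkpoint genes called higher was 2.

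The remaining BUB1 models did not pass the test in the reported fit. LOC_Os07g32480, whose GO terms name protein kinase activity, had 192 and 146 counts in mre11 and 42 and 93 in WT (log2 fold change 0.88, adjusted p = 0.0698). It passed with library size alone (1.05, adjusted p = 0.0449) and with limma on log2(RPKM + 0.1) (1.08, adjusted p = 0.0436). LOC_Os06g19410 and LOC_Os06g19420, which have neighbouring locus numbers on chromosome 6, had overlapping groups and log2 fold changes of 0.28 (adjusted p = 0.723) and -0.10 (adjusted p = 0.871). The sign of LOC_Os06g19420 turned with library size alone, where its value was 0.064. LOC_Os04g38270 had 4 and 9 counts in mre11 and none in either WT library, and its GO terms name rRNA N-glycosylase activity. A last BUB3 model, LOC_Os07g39950, had no count in any library. Of the summed BUB1 RPKM, LOC_Os02g10020 held 45.5% and 54.6% in mre11 and 15.3% and 18.4% in WT. Summed over the checkpoint, the level was 63.7 and 60.6 RPKM in mre11 and 22.6 and 24.6 RPKM in WT.

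**Figure D3:**
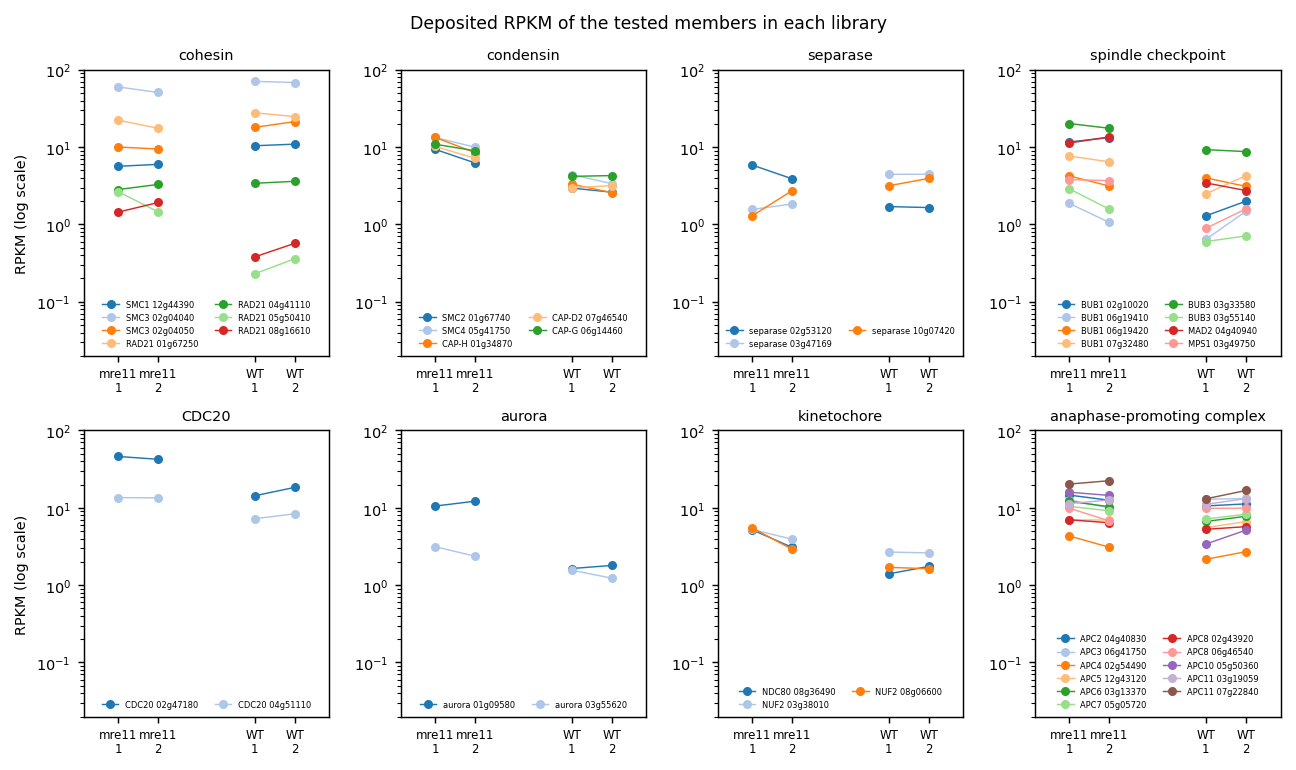
Deposited RPKM (log scale) of the 41 tested gene models in each mre11 and WT library, in 1 panel per group. Points are single libraries and lines join the libraries of a genotype. Condensin, aurora and MAD2 points in mre11 stand clear above those in WT, while SMC3 LOC_Os02g04040, the highest of all, stands at 60.0 and 50.8 RPKM in mre11 and 70.7 and 68.4 RPKM in WT.

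CDC20, on which the checkpoint acts, is assigned to 3 gene models. LOC_Os04g51110 had 945 and 848 counts in mre11 and 338 and 506 counts in WT, or 13.6 and 13.5 RPKM against 7.22 and 8.38 RPKM. It was higher at less than 2-fold, by a log2 fold change of 0.63 ± 0.15 (SE, adjusted p = 0.0179). Without WT replicate 1 the adjusted p was 0.118, and without WT replicate 2 it was 0.0718. LOC_Os02g47180 had 2463 and 2047 counts in mre11 and 513 and 851 counts in WT, a log2 fold change of 1.27 ± 0.16 (SE, adjusted p = 0.00264). This second model had 46.1 and 42.4 RPKM in mre11 and 14.3 and 18.4 RPKM in WT. Its GO terms name a plastid enzyme of terpenoid synthesis. The same enzyme terms are also listed for a Rubisco small subunit gene and a light-harvesting gene, so they do not settle what the model encodes. Its place among CDC20 genes rests on the orthology identifier. LOC_Os09g06680 had 5 and 10 counts in mre11 and none in either WT library. It was too low to test.

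Aurora kinases phosphorylate histone H3 and correct faulty attachments of kinetochores. LOC_Os01g09580, whose GO terms include spindle and histone kinase activity, had 458 and 479 counts in mre11 and 48 and 68 counts in WT, which is 10.5 and 12.2 RPKM against 1.64 and 1.80 RPKM. Its log2 fold change was 2.56 ± 0.22 (SE), with the lowest adjusted p of all members (0.00129). The other aurora model, LOC_Os03g55620, had 192 and 130 counts in mre11 and 64 and 65 counts in WT (log2 fold change 0.81, adjusted p = 0.0641). The mre11 libraries lay above the WT libraries for both genes, as in 37.5% of all tested genes. LOC_Os01g09580 held 77.0% and 83.8% of the aurora RPKM in mre11 and 51.2% and 59.4% in WT.

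NDC80 and NUF2 form the arm by which a kinetochore binds microtubules. NDC80 (LOC_Os08g36490) had 282 and 150 counts in mre11 and 51 and 82 counts in WT, a log2 fold change of 1.22 ± 0.31 (SE, adjusted p = 0.0250). NUF2 is assigned to 2 gene models. LOC_Os08g06600 had 183 and 87 counts in mre11 and 38 and 47 counts in WT, a log2 fold change of 1.16 ± 0.37 (SE, adjusted p = 0.0494). LOC_Os03g38010 was the more abundant on average, at 5.25 and 3.92 RPKM in mre11 and 2.68 and 2.61 RPKM in WT, with a log2 fold change of 0.63 ± 0.27 (SE, adjusted p = 0.110). Both mre11 libraries lay above both WT libraries in all 3 genes, as in 37.5% of all tested genes. The mre11 libraries differed from each other by 0.33 to 0.83 on the log2 scale, with replicate 1 the higher in all 3. NDC80 lost its call without WT replicate 1 (adjusted p = 0.128), WT replicate 2 (adjusted p = 0.0916) or mre11 replicate 1 (adjusted p = 0.101). NUF2 LOC_Os08g06600 lost its call without the same libraries (adjusted p = 0.154, 0.184 and 0.248), with DESeq2 (adjusted p = 0.0538) and with RLE scaling (adjusted p = 0.0502). With limma on log2(RPKM + 1), NDC80 stood at 0.97 and NUF2 LOC_Os08g06600 at 0.92.

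Of the 11 tested genes of the anaphase-promoting complex, 1 was higher in mre11 (9.09%, near the 12% of all tested genes) and none was lower. That gene was APC10 (LOC_Os05g50360), which in yeast and human helps the complex to hold its substrates. It had 307 and 252 counts in mre11 and 44 and 86 counts in WT, or 15.9 and 14.5 RPKM against 3.40 and 5.15 RPKM. The log2 fold change was 1.66 ± 0.26 (SE, adjusted p = 0.00552), and the call held without any single library. The locus number of APC10 is close to that of the RAD21 gene LOC_Os05g50410 on chromosome 5, which was also higher. This pair was named with its values known. Some other members with close locus numbers differed, such as MAD2 (LOC_Os04g40940, log2 fold change 1.85) and APC2 (LOC_Os04g40830, 0.15). The SMC3 genes LOC_Os02g04040 and LOC_Os02g04050 shared a direction. The part of position was not tested.

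The other 10 tested genes of the complex had log2 fold changes between -0.41 and 0.47, with a smallest adjusted p of 0.0673. APC6 alone of the 10 passed an unadjusted threshold of 0.05 in edgeR, and DESeq2 called none of the 10. Over these 10 genes, the 95% intervals of the log2 fold change reached no higher than 1.10 (2.14-fold, for the APC4 gene LOC_Os02g54490) and no lower than -0.92 (0.528-fold, for the APC8 gene LOC_Os06g46540). The catalytic pair is the cullin APC2 and the RING protein APC11. APC2 (LOC_Os04g40830) had 14.6 and 12.5 RPKM in mre11 and 10.6 and 11.3 RPKM in WT, with a log2 fold change of 0.15. The most abundant gene of the complex was the APC11 model LOC_Os07g22840, at 20.3 and 22.4 RPKM in mre11 and 13.1 and 16.8 RPKM in WT. Its counts were 134 and 134 in mre11 and 58 and 96 in WT, with a log2 fold change of 0.35 ± 0.27 (SE, adjusted p = 0.343). The second APC11 model, LOC_Os03g19059, had a log2 fold change of -0.18, and its groups overlapped.

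Among the subunits with tetratricopeptide repeats, which form the arch of the complex, APC6 (LOC_Os03g13370) had a log2 fold change of 0.47 and APC3 (LOC_Os06g41750) one of -0.37. APC7 (LOC_Os05g05720) had 0.18, and the 2 APC8 models had 0.12 (LOC_Os02g43920) and -0.41 (LOC_Os06g46540). The scaffold subunits APC4 (LOC_Os02g54490) and APC5 (LOC_Os12g43120) had 0.44 and 0.03. The APC5 value was the smallest of all members in size, and its sign turned without WT replicate 1 (-0.088) and without mre11 replicate 2 (-0.017). LOC_Os02g54480, which carries the APC4 identifier beside reverse transcriptase GO terms, had 1 and 3 counts in mre11 and none in WT. Levels across the 11 tested genes of the complex ran from 4.33 to 20.3 RPKM and from 3.09 to 22.4 RPKM in the mre11 libraries and from 2.16 to 13.1 RPKM and from 2.71 to 16.8 RPKM in the WT libraries.

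Leaving cohesin and the anaphase-promoting complex aside, 14 of the 23 tested members were higher in mre11 and 1 was lower, with a median log2 fold change of 1.22, where 12% and 9.31% of all tested genes were higher and lower. Since these groups were set aside with their values known, the share that remains is raised by the choice. In cohesin 2 of 7 were higher and 2 lower, and in the anaphase-promoting complex 1 of 11 was higher, near the share of all tested genes, and none was lower. At any fold, 4 of the 7 cohesin genes were lower in the reported fit, where 18.3% of all tested genes were. All 3 tested SMC1 and SMC3 genes were among the 4, with the losses given above for LOC_Os02g04040 and LOC_Os01g67250. These counts describe the groups, and the differences between groups were not tested.

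Other genes of chromosome segregation, chosen by orthology identifier, gave 18 tested gene models, with a median log2 fold change of 1.03. Of these, 8 were higher in mre11 (44.4%) and 1 was lower (5.56%), against 12% and 9.31% of all tested genes. The 2 with the lowest adjusted p were a TPX2 gene, for a spindle assembly factor, and a topoisomerase II gene, whose product untangles sister DNA. TPX2 (LOC_Os07g32390) had 773 and 715 counts in mre11 and 91 and 166 counts in WT, a log2 fold change of 2.09 ± 0.21 (SE, adjusted p = 0.00161). Topoisomerase II (LOC_Os02g47150) had 2111 and 1569 counts in mre11 and 516 and 739 counts in WT, a log2 fold change of 1.08 ± 0.14 (SE, adjusted p = 0.00308).

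Lists of genes that mark dividing cells more broadly held higher genes as well, though not every gene was called. Of the 7 genes for MCM2 to MCM7, the replicative helicase, 5 were higher and none lower, where 12% and 9.31% of all tested genes were. Their median log2 fold change was 1.63. MCM7 (LOC_Os12g37400) stood at 2.12 and MCM6 (LOC_Os05g14590) at 1.63 on the log2 fold change scale. Of the 15 tested cyclin A and cyclin B genes, 7 were higher (46.7%) and none was lower by 2-fold, with a median of 1.59, and 8 were not called. At any fold 8 were higher (53.3%) and 2 were lower (13.3%), against 18.8% and 18.3% of all tested genes. Both mre11 libraries lay below both WT libraries in 4 (26.7%, against 35.7% of all tested genes). The lower genes at any fold, named after their values were seen, were the cyclin A genes LOC_Os12g20324 (-0.91, adjusted p = 0.0226) and LOC_Os05g14730 (-0.58, adjusted p = 0.0223). The cyclin B genes LOC_Os01g59120 and LOC_Os05g41390 had log2 fold changes of 2.14 and 2.69. PCNA (LOC_Os02g56130), the replication clamp, had 89.6 and 64.2 RPKM in mre11 and 23.2 and 21.3 RPKM in WT. The genes called higher in these lists share the direction of condensin, the checkpoint and the kinetochore, which follows from picking called genes. Whether they varied together, and their part in those results, was not tested.

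**Figure D4:**
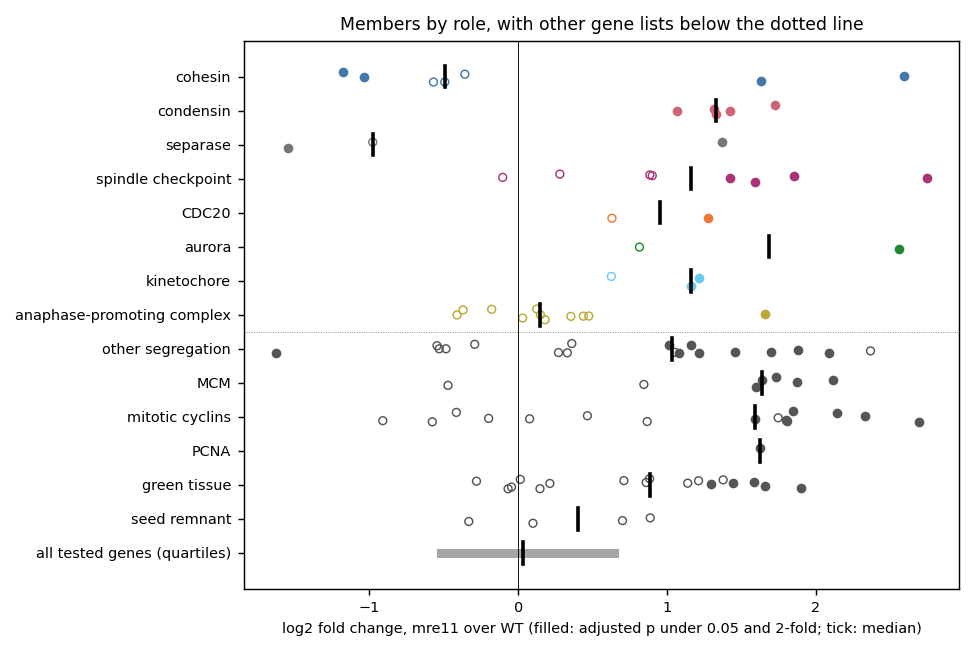
Log2 fold changes of mre11 over WT for the tested genes of each group, with other gene lists below the dotted line. Each point is a gene, filled where it passed the test, short black ticks are medians, and the grey bar spans the quartiles of all tested genes (-0.52 to 0.64). Medians were 1.33 for condensin, 1.16 for the checkpoint, 1.63 for the MCM genes and 1.59 for the cyclins, but -0.49 for cohesin and 0.15 for the anaphase-promoting complex.

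The 2 mre11 libraries did not differ in the same way for all groups. On the log2 scale, mre11 replicate 1 exceeded mre11 replicate 2 by a median of 0.42 over the 5 condensin genes (range 0.20 to 0.57) and of 0.67 over the 3 kinetochore genes. By contrast, BUB1 LOC_Os02g10020, MAD2 and aurora LOC_Os01g09580 were lower in mre11 replicate 1, by -0.28, -0.35 and -0.30. Over all tested genes the median difference between the 2 mre11 libraries was 0.00. It ran from -0.81 at percentile 5 to 0.78 at percentile 95. The values given in this paragraph lie within that range, while the kinetochore gene NUF2 LOC_Os08g06600, at 0.83, lies above it. Green tissue RPKM was lower in mre11 replicate 1 (14900) than in mre11 replicate 2 (23000), and its part in this difference was not tested.

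**Figure D5:**
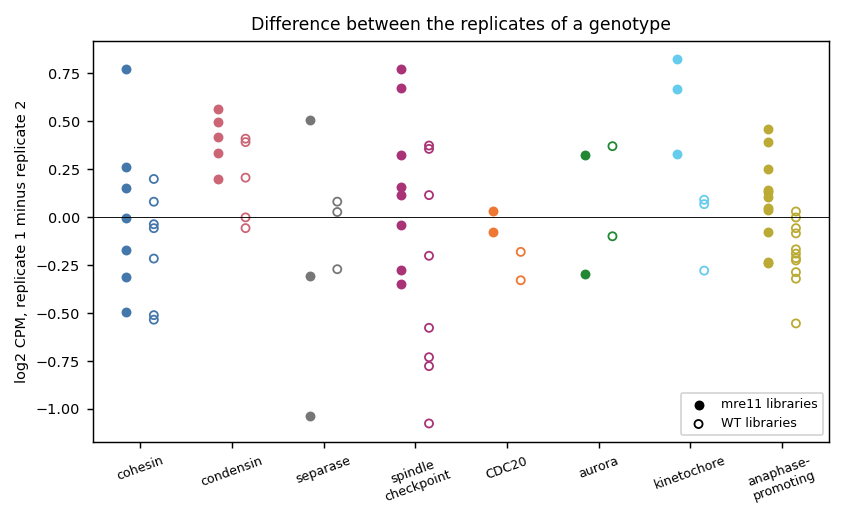
Difference in log2 CPM (counts scaled by library size) between replicate 1 and replicate 2 of a genotype, for each tested member by group. Filled points are the mre11 libraries and open points the WT libraries. All 5 condensin and all 3 kinetochore genes lie above 0 in mre11.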

How the data were processed

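Per the paper's methods and the submitters' processing notes, the authors mapped reads to version 7.0 of the rice pseudomolecules, counted them with HTSeq 0.6.1 and tested them with DESeq2 1.6.3. The aligner and the strand setting are not given in the sources used here, so neighbouring or near-identical gene models are uncertain. The deposited counts, 1 whole number per gene model and library, were used as they are. RPKM, as deposited by the authors, divides each count by gene length and library size without composition scaling, and the length they divide by is mostly shorter than the gene length (in bases) that the authors list. A total of 16 per-sample columns in the tables of the whole series repeat the library files and were not used.

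Totals were 19004825 and 17170661 counts in mre11 replicates 1 and 2, and 12753324 and 16460543 in WT replicates 1 and 2. The counts were filtered (filterByExpr), scaled (TMM) and tested with edgeR 4.0.16 in R 4.3.3 (glmQLFit and glmQLFTest, genotype only, common dispersion 0.0384), with Benjamini-Hochberg adjustment over 24470 genes. The test was checked on simulated data. Calls needed an adjusted p under 0.05 and at least a 2-fold difference. With 2 libraries against 2, a permutation of samples gives no two-sided p below 0.333, so the p-values rest on the spread shared across genes. A member with 3 counts or fewer in every library was at the floor (0.158 to 0.235 CPM), which 5 members were. This floor covers counting error only. Figures were drawn with matplotlib 3.10.9.

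Members were taken by orthology identifier from the deposited annotation, and members and lists were chosen with earlier results of these data known. Every member could be named. Full statistics are given per group for at most 4 members with an adjusted p under 0.05, for the most abundant one and for the one with the largest fitted difference. Outside the members, Mre11 and at most 2 genes per list with the lowest adjusted p are named in the results. None (0) of the 55986 identifiers matched the RefSeq table (assembly ASM3414082v1), so no sequence or position is given, and chromosomes are read from the locus names. The alternatives were DESeq2 1.42.0, 3 other scalings, 2 other filters, 2 other thresholds, limma 3.58.1 on log2 of RPKM plus 1 or 0.1, a replicate block and leaving out each library.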

Additional observations from a re-analysis of the deposited data

How the results depend on the processing

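With 17 members called higher and 3 lower in the reported fit, an adjusted p under 0.01 left 11 higher, no fold threshold gave 5 lower, and limma on log2(RPKM + 1) gave 1 lower. Leaving out each library in turn gave 8 to 16 higher and 1 to 3 lower. Cohesin, with 2 higher and 2 lower, had 1 higher with limma on log2(RPKM + 1) and with an adjusted p under 0.01, and 0 to 2 higher on leaving out each library. Its count of lower genes was 1 with upper-quartile scaling, library size alone and limma on log2(RPKM + 0.1), 0 with limma on log2(RPKM + 1), 4 with no fold threshold, and 1 to 2 on leaving out each library. The cohesin median was -0.33 with library size alone and with either limma fit. Condensin had 1 to 5 higher genes on leaving out each library. The checkpoint, with 4 higher, had 6 with library size alone and with limma on log2(RPKM + 0.1), 3 with limma on log2(RPKM + 1), 2 with an adjusted p under 0.01, and 2 to 4 on leaving out each library. The median of the anaphase-promoting complex, 0.15 as reported, was 0.23 with upper-quartile scaling, 0.32 with library size alone, 0.29 and 0.31 with limma on log2(RPKM + 1) and log2(RPKM + 0.1), and 0.0896 to 0.21 on leaving out each library.

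The sign of LOC_Os06g19410 turned without WT replicate 1 (-0.17) and without mre11 replicate 1 (-0.12), within a range of -0.17 to 1.00 on leaving out each library. That of LOC_Os06g19420 turned with library size alone (0.064), limma (0.039 and 0.048), without WT replicate 1 (0.089) and without mre11 replicate 2 (0.050), within -0.31 to 0.089 on leaving out each library. That of LOC_Os12g43120 turned without WT replicate 1 (-0.088) and without mre11 replicate 2 (-0.017), within -0.088 to 0.14. The cause of these differences was not tested, although fewer samples enter a fit that leaves a library out. Each such fit also called fewer genes higher and fewer lower over all genes. The calls of LOC_Os07g46540, LOC_Os02g10020, LOC_Os04g40940, LOC_Os02g47180, LOC_Os01g09580 and LOC_Os05g50360 were kept in the alternatives run.

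With the replicate number as a block, 16 members were higher and 3 lower, the call lost being NUF2 LOC_Os08g06600 (adjusted p = 0.0570). Over all genes the block gave 2736 higher and 2231 lower. The labels give same-numbered samples nothing in common beyond the number. The correlation of their deviations was -0.0065, but with 2 samples per genotype it cannot exclude that they were handled together. Green tissue RPKM was lower in replicate 1 of both genotypes. Leaving out the 6 members whose GO terms name another function, an alternative added after the data were seen, left 15 higher and 3 lower of 38 tested. Low counts limit RAD21 LOC_Os05g50410 (8 and 16 counts in WT), and 2 libraries per genotype limit every comparison.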

Other observations

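Several regulators of cohesin and condensin outside the described complexes were chosen here after their values were seen. The cohesin loader SCC2 (LOC_Os07g01940) had 902 and 668 counts in mre11 and 647 and 939 counts in WT, a log2 fold change of -0.49 (adjusted p = 0.0401 by edgeR's quasi-likelihood test), lower at less than 2-fold. PDS5, which regulates how long cohesin stays on DNA, had 3 tested gene models with log2 fold changes of 1.46 for LOC_Os01g64900 (adjusted p = 0.00673), -0.29 for LOC_Os06g17840 (adjusted p = 0.172) and 0.27 for LOC_Os10g42754 (adjusted p = 0.578). The rising gene had 4.43 and 3.05 RPKM in mre11 and 1.31 and 1.11 RPKM in WT, while LOC_Os06g17840 was the most abundant, at 27.4 and 21.2 RPKM in mre11 and 26.7 and 26.2 RPKM in WT. Of the condensin II subunits, CAP-H2 (LOC_Os07g33360) was higher by a log2 fold change of 1.70 (adjusted p = 0.00397) and CAP-D3 (LOC_Os12g36170) by 1.01 (adjusted p = 0.0404), while CAP-G2 (LOC_Os03g42040) had 1.05 (adjusted p = 0.0512).

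Orthology groups with several gene models also went opposite ways outside the members. For CDH1, the other activator of the anaphase-promoting complex, LOC_Os01g74146 had a log2 fold change of 1.88 (adjusted p = 0.00443 by edgeR), with 190 and 152 counts in mre11 and 27 and 40 counts in WT. LOC_Os03g03150 had -0.55 (adjusted p = 0.0238), with 637 and 584 counts in mre11 and 564 and 722 counts in WT. For TPX2, LOC_Os02g22084 was lower by a log2 fold change of -1.62 (adjusted p = 0.00443), with 214 and 123 counts in mre11 and 341 and 392 counts in WT.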
